A study of Mus musculus with 3 samples.

Results

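*Bach2*, *Foxo1*, *Foxp1* and *Satb1* encode transcription factors and a chromatin organizer that are associated with quiescence in T cells. They were chosen by name from the gene symbols of the deposited tables, which makes 4 of 33696 genes. All 4 were above the minimum mean of 10 CPM (counts per 1000000 UMIs, the unique molecular identifiers that mark captured RNA molecules), as were 7370 genes in all. Their levels were taken from intratumoral pmel T cells, CD8+ T cells with a transgenic T cell receptor for a melanoma antigen that carry the congenic marker Thy1.1. The 3 treatments gave 1 library each: sIL-2 (an IL-2 variant with high affinity for the beta chain of its receptor), IL-2/21-trikine (sIL-2 joined to an IL-21 mutant that binds the alpha chain of the IL-21 receptor but cannot signal by itself) and sIL-2 + IL-21. In each arm, the cells were expanded with the named cytokine and transferred into irradiated mice bearing B16F10 melanomas. The mice then received the low dose regimen, and the tumors were taken on day 18 after tumor injection. According to the methods, only sIL-2 was injected *in vivo* where sIL-2 + IL-21 had been used for preconditioning, so the label of that library describes the culture and not the treatment of the mouse. Live Thy1.1+CD8+ cells were sorted for 10x Genomics 3' sequencing. How many mice were pooled is not given in the sources used here, and the libraries carry no replicates.

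BACH2 is a repressor that occupies sites shared with AP-1 factors and restrains effector differentiation, and it is known for its role in memory and stem-like CD8+ T cells. FOXO1 is held in the cytoplasm when AKT phosphorylates it downstream of antigen and cytokine receptors. In resting cells it enters the nucleus and drives genes of homing and survival such as *Klf2*, *Ccr7*, *Il7r* and *Tcf7*, so its RNA level is not a measure of its activity. FOXP1 maintains quiescence of naive T cells and limits responses to IL-7, and SATB1 organizes chromatin in thymocytes and mature T cells.

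The libraries of sIL-2, IL-2/21-trikine and finally sIL-2 + IL-21 held 7760, 13299 and 9798 cells after quality control. Their median depths were 12882.5, 10254 and 14055.5 UMIs in the same order. At most 43 cell barcodes were shared between any pair of libraries. All 6 T cell markers were at 118 CPM or more in each library. *Cd4* was at 1.21 CPM or below, and the 10 myeloid markers summed to 202 to 389.7 CPM, with *Csf1r*, *C1qa* and *C1qb* below 1 CPM in each library. B cells also use these factors, but 4 of 5 B cell markers, *Cd79a*, *Ms4a1* and *Pax5* among them, were below 1 CPM in all 3 libraries, *Cd79b* was at 1.61 to 2.24 CPM, and no barcode carried 2 or more of these markers. Hemoglobin RNA was summed at 53.3 CPM with sIL-2 and below 1 CPM in the other libraries. Since there is 1 library per treatment, no test between treatments was possible. All intervals are exact 95% intervals that cover counting error only, and a difference between libraries cannot be told apart from a difference between mice, sorts or library preparations.

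*Bach2* was measured at 536 CPM with sIL-2 (interval 532 to 539.7), 447 CPM with IL-2/21-trikine (444 to 450.4) and 269 CPM with sIL-2 + IL-21 (267 to 272). By UMIs, which include intronic reads and are not scaled to gene length, these values put *Bach2* above 92.9% to 96.4% of the 7370 genes with a mean of at least 10 CPM. The sIL-2 library was therefore the highest and the sIL-2 + IL-21 library the lowest. *Bach2* was 1.99-fold higher with sIL-2 than with sIL-2 + IL-21 (log2 0.99, 0.97 to 1.01). IL-2/21-trikine lay between them, 1.66-fold above sIL-2 + IL-21 (log2 0.73, 0.71 to 0.75) and at a ratio of 0.835 to sIL-2 (log2 -0.26, -0.28 to -0.25).

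*Foxo1* was measured at 110.1 CPM with sIL-2 (108 to 112), 96.2 CPM with IL-2/21-trikine (94.7 to 97.7) and 75.1 CPM with sIL-2 + IL-21 (73.8 to 76.4). The order of the libraries was that of *Bach2*, with smaller steps. The log2 ratio was 0.55 (0.52 to 0.59) for sIL-2 against sIL-2 + IL-21, 0.36 (0.32 to 0.39) for IL-2/21-trikine over sIL-2 + IL-21, and -0.20 (-0.23 to -0.16) for IL-2/21-trikine over sIL-2.

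*Foxp1* had 388 CPM with sIL-2 (385 to 392), 393 CPM with IL-2/21-trikine (389.6 to 396) and 235 CPM with sIL-2 + IL-21 (233 to 238). The first 2 libraries differed by log2 0.02 with an interval from -0.00 to 0.03, so their order was not resolved by the counts. Both were higher than sIL-2 + IL-21, by log2 0.72 (0.70 to 0.74) for sIL-2 and 0.74 (0.72 to 0.76) for IL-2/21-trikine.

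*Satb1* had 473 CPM with sIL-2 (469 to 477), 503 CPM with IL-2/21-trikine (499 to 506) and 345 CPM with sIL-2 + IL-21 (342 to 348). It was the factor for which the counts resolved a highest level in the IL-2/21-trikine library, by log2 0.09 over sIL-2 (0.07 to 0.10). This order depended on depth, as given below. The ratio was -0.10 in cells of 10000 to 20000 UMIs, below 0 in each smaller bin, and 0.11 above 20000. Against sIL-2 + IL-21 the log2 ratio was 0.54 (0.53 to 0.56) for IL-2/21-trikine and 0.46 (0.44 to 0.47) for sIL-2.

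**Figure D1:**
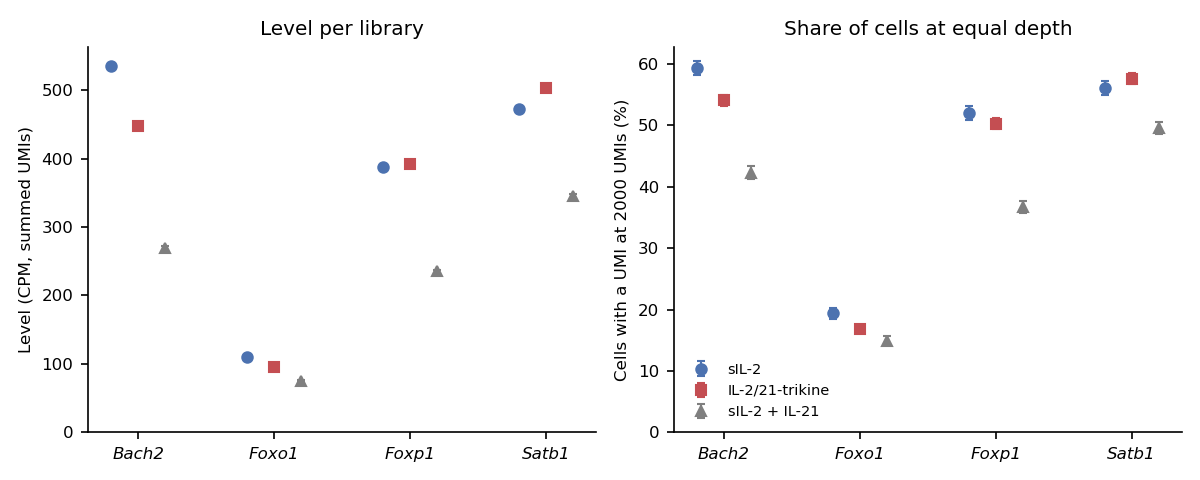
Left, level of each gene in CPM from summed UMIs per library. Right, percent of cells with at least 1 UMI of the gene after every cell was thinned to 2000 UMIs. Points are the 3 libraries (circles sIL-2, squares IL-2/21-trikine, triangles sIL-2 + IL-21) and bars are exact 95% intervals for counting error; the sIL-2 + IL-21 library is the lowest for each gene on both scales.

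Sequence before the start sites was searched for letters that these families bind, and the matches at *Foxp1* and those of the longer forkhead motif are shown. The 250 bases before each RefSeq start (GRCm38.p6) were searched on both strands for TAAACA, the core of forkhead sites, for the longer GTAAACA, which contains it, and for TGANTCA of AP-1 and BACH factors. Of 27025 genes, 13.5% held TAAACA in at least 1 window, 3.54% GTAAACA and 7.82% TGANTCA. All 3 *Foxp1* windows held the core, and the windows of *Bach2*, *Foxo1* (1 each) and *Satb1* (5) did not. TGANTCA was found for 0 of the 4 factors and for 0 of 13 FOXO1-linked genes in the table. Among those 13, GTAAACA was found for *Bcl2l11*, which encodes the death factor BIM, and *Txnip*, and the core for 3 (these and *Cdkn1b*). Of 4 family relatives in the table, *Foxp3* held the core. The runs below are 30 bases each, on the strand of the gene, with the match in capitals (TGTTTA is the core read from the other strand). The *Foxp1* runs that begin at 99266575 and 99266516 are separate matches in the same window of 250 bases.
Foxp1 window at chr6:99521067-99521096 (minus strand): ctaaggactaaaTAAACAgttgtaactcca
Foxp1 window at chr6:99266575-99266604 (minus strand): gctgagtgtttgTGTTTAtgcaaaggggcc
Foxp1 window at chr6:99266516-99266545 (minus strand): cagtggctttgttgTGTTTAgcccacatac
Foxp1 window at chr6:99028336-99028365 (minus strand): ggcggcgcggggTGTTTAgaggcgggttgt
Bcl2l11 window at chr2:128125800-128125829 (plus strand): aagacactaggGTAAACAcgccggggtggg
Txnip window at chr3:96557825-96557854 (plus strand): ttggaggcctgGTAAACAagggccaagtag
These are matches of letters and not sites of binding. *Txnip* was at 249, 204 and 190.0 CPM with sIL-2, IL-2/21-trikine and finally sIL-2 + IL-21, and *Bcl2l11* at 282, 241 and 189.7 CPM.

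The levels of the factors were read against all 7370 genes, where a log2 ratio of at least 0.5 in size was counted as a difference. For IL-2/21-trikine over sIL-2 + IL-21, 3 of the 4 factors were higher by this rule (*Bach2*, *Foxp1* and *Satb1*), against 3.18% of all genes, with 6.04% past it in either direction. For sIL-2 against sIL-2 + IL-21, 3 of 4 were higher (*Bach2*, *Foxo1* and *Foxp1*), against 9.89% of all genes, with 5.2% lower. For IL-2/21-trikine over sIL-2, 0 of 4 passed in either direction, against 7.98% of all genes (2.56% higher and 5.41% lower). The median log2 ratio of the 4 factors was 0.64, 0.64 and -0.09 in these comparisons, beside 0.00, 0.07 and -0.08 for all genes. The comparisons share libraries and are not independent of each other. Median-of-ratios scaling shifted the split of all called genes. The share that was higher moved from 32.1% to 49.8% for IL-2/21-trikine over sIL-2. It moved from 65.6% to 49.8% for sIL-2 against sIL-2 + IL-21. With that scaling the *Foxo1* ratio of sIL-2 over sIL-2 + IL-21 was 0.48, below the limit of 0.5, and it was 0.44 both with each cell weighted equally and after thinning to 2000 UMIs. For IL-2/21-trikine over sIL-2 + IL-21, thinning put *Bach2* at 0.41 and *Satb1* at 0.35, so that 1 of 4 factors (*Foxp1*, 0.63) passed, and with cells weighted equally *Satb1* was at 0.48.

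Shares of positive cells were compared after each cell was thinned to 2000 UMIs, because depth differed between libraries. This left out 3.43% of sIL-2 cells, 13.3% of IL-2/21-trikine cells and 3.72% of cells in the sIL-2 + IL-21 library, which had fewer UMIs. *Bach2* was detected in 59.3% of the remaining sIL-2 cells (58.2 to 60.4), 54.0% of IL-2/21-trikine cells (53.1 to 54.9) and 42.3% of sIL-2 + IL-21 cells (41.3 to 43.3). Without thinning the *Bach2* shares were 93.2%, 86.1% and 83.9%. *Foxo1* was detected in 19.4%, 16.8% and 14.9% of thinned cells in the same order of libraries. *Foxp1* was detected in 51.9%, 50.2% and 36.7%, and *Satb1* in 56.1%, 57.5% and 49.6%. The sIL-2 + IL-21 library thus had the lowest share for each factor. The *Foxp1* share of IL-2/21-trikine cells was below that of sIL-2 cells although its CPM was not, and no order of these libraries is read from it.

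A background for these shares was sought in 38 barcodes with UMIs of at least 4 of 10 myeloid markers, counted over the 3 libraries at 2000 UMIs. In these, *Bach2* was detected in 28.9% (15.4 to 45.9), *Foxp1* in 36.8% (21.8 to 54.0) and *Satb1* in 34.2% (19.6 to 51.4), with a median depth of 10875 UMIs. *Foxo1* was detected in 10.5% (2.94 to 24.8), an interval that spans its share in all 3 libraries. *Cd3e*, a T cell gene, was present in 28.9% of the same barcodes. These wide intervals held the share of the sIL-2 + IL-21 library for all 4 factors, and the share of every library for *Foxp1* and *Foxo1*. With so few barcodes and no doublet calling, these shares cannot be assigned to background RNA, doublets or the myeloid cells' own RNA. They thus cannot show whether the T cell share of any of the 4 factors stands above background, and no background level is read here.

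Within a library, the factors were found together more often than their shares predict. For the 6 pairs, the number of cells with both over the number expected ranged from 1.03 to 1.18. *Bach2* and *Satb1* had the highest value, 2332 cells observed in the sIL-2 + IL-21 library (1.18 times expected). Cells with all 4 factors numbered 367 with sIL-2 (1.46 times expected), 467 in IL-2/21-trikine cells (1.54) and 217 in cells of sIL-2 + IL-21 (2.01). Cells with a UMI of none of them made up 10.5% with sIL-2, 11.2% in IL-2/21-trikine cells and 20.6% in cells of sIL-2 + IL-21. Cells of a library share its preparation, and these ratios are descriptions.

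All 4 factors took a smaller share of the RNA in cells with many UMIs. *Bach2* had 674 CPM in sIL-2 cells of 5000 to 10000 UMIs and 412 CPM in those above 20000. With IL-2/21-trikine the corresponding levels were 531 and 369.6 CPM, and with sIL-2 + IL-21 they were 520.2 and 178 CPM. The gap in *Bach2* between small and large cells was widest in the sIL-2 + IL-21 library. The correlation of thinned *Bach2* counts with the log of total UMIs was -0.16, -0.11 and -0.28 with sIL-2, IL-2/21-trikine and finally sIL-2 + IL-21. *Satb1* had 740.2 and 362 CPM at the same depths in sIL-2 cells, 714 and 389 CPM in IL-2/21-trikine cells, and 645 and 256 CPM with sIL-2 + IL-21.

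The difference between libraries depended on depth as well. For *Bach2*, the log2 ratio of IL-2/21-trikine over sIL-2 + IL-21 was 0.03 (-0.01 to 0.07) in cells of 5000 to 10000 UMIs, 0.46 (0.44 to 0.49) at 10000 to 20000 and 1.06 (1.03 to 1.09) above 20000. Below 5000 UMIs it was -0.05 at 2000 to 5000, 0.25 at 1000 to 2000 and -0.39 at 500 to 1000. The higher *Bach2* level of the IL-2/21-trikine library was thus found mainly in cells above 10000 UMIs. Cells of 500 to 1000 UMIs had a median mitochondrial share of 9.46% and *Malat1* at 15825 CPM with sIL-2 + IL-21, against 1.23% and 8819 CPM with IL-2/21-trikine, and the part of these in the ratio of the smallest cells was not tested. Cells above 20000 UMIs were 17.3% of IL-2/21-trikine cells against 31.5% in the sIL-2 + IL-21 library.

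*Foxp1* followed another course above 5000 UMIs. Its log2 ratio of IL-2/21-trikine over sIL-2 + IL-21 was 0.48 (0.43 to 0.52) already at 5000 to 10000 UMIs, 0.63 at 10000 to 20000 and 0.78 above 20000. Below 5000 UMIs the *Foxp1* ratio was 0.19 (0.08 to 0.30) at 2000 to 5000 and was not resolved from 0 in smaller cells. In the 3 bins above 5000 UMIs *Satb1* had 0.15, 0.36 and 0.60, and *Foxo1* had 0.09, 0.18 and 0.45. The *Satb1* and *Foxo1* ratios were therefore larger at each step of depth, as for *Bach2*, and reached smaller values.

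For sIL-2 against sIL-2 + IL-21, *Bach2* was higher in every depth bin, from log2 0.37 at 5000 to 10000 UMIs to 1.21 above 20000. For IL-2/21-trikine over sIL-2, *Bach2* was lower in every bin, from -0.89 at 500 to 1000 UMIs to -0.16 above 20000. *Satb1* in that comparison changed sign, with -0.10 (-0.13 to -0.08) at 10000 to 20000 UMIs and 0.11 (0.08 to 0.13) above 20000. *Foxp1* did so too, with -0.11 and 0.06. In each smaller bin the *Satb1* ratio was below 0, from -0.34 at 500 to 1000 UMIs to -0.05 at 5000 to 10000. Its interval held 0 at 1000 to 2000 UMIs. Cells above 20000 UMIs were 17.3% of IL-2/21-trikine cells and 26.6% of sIL-2 cells. The part of this difference in depth in the summed *Satb1* ratio of 0.09 was not tested.

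**Figure D2:**
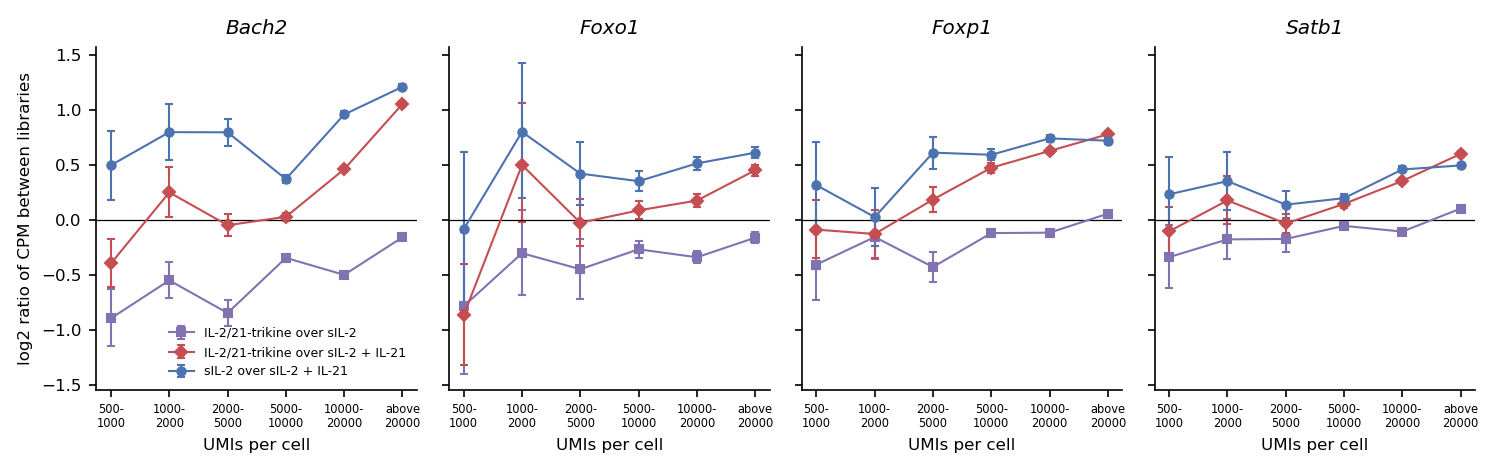
Log2 ratio of CPM between each pair of libraries (vertical axis) within bins of total UMIs per cell (horizontal axis), 1 panel per gene. Bars are exact 95% intervals for counting error. *Bach2* with IL-2/21-trikine over sIL-2 + IL-21 (diamonds) goes from 0.03 at 5000 to 10000 UMIs to 1.06 above 20000. *Foxp1* is already at 0.48 at 5000 to 10000 UMIs, and at -0.09, -0.13 and 0.19 in the bins below, from the smallest up.

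Levels of the factors were higher where the mitochondrial share of a cell was high. At equal depth, *Bach2* had 607 CPM in sIL-2 cells with less than 2% mitochondrial UMIs and 1667 CPM in the 15 cells with 10% to 20%. With sIL-2 + IL-21 the same groups had 347 and 682 CPM. *Malat1*, a long non-coding RNA retained in the nucleus, had 5270 CPM below 2% and 18533 CPM at 10% to 20% in the same sIL-2 cells. At this depth, the *Bach2* log2 ratio of IL-2/21-trikine over sIL-2 + IL-21 was 0.43 (0.39 to 0.48) below 2%, 0.24 (0.10 to 0.38) at 2% to 5%, 1.17 (0.79 to 1.56) at 5% to 10% and 0.84 (0.33 to 1.37) above. That of *Foxp1* was between 0.41 and 0.84. Over all UMIs the ratios of the 4 bins were between 0.59 and 0.99 for *Bach2* and between 0.49 and 0.75 for *Foxp1*. Cells above 5% were few, at most 387 per bin and library over all kept cells and 15 to 84 after thinning. Cells below 2% made up 88.4% to 91.4%. Before thinning, sIL-2 cells had a median of 13530 UMIs below 2% and 1645 UMIs at 10% to 20%. *Bach2* was at 1083 CPM in all sIL-2 cells of 2000 to 5000 UMIs, and the part of depth in these levels was not tested.

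The *Malat1* level differed between libraries in the order of *Bach2* and *Foxo1*, with 4300.5 CPM for sIL-2, 3517 CPM for IL-2/21-trikine and 2407 CPM for sIL-2 + IL-21. Cells were therefore compared at like *Malat1* counts after thinning to 2000 UMIs. In cells with 0 to 2 *Malat1* UMIs, the *Bach2* log2 ratio of IL-2/21-trikine over sIL-2 + IL-21 was 0.53 (0.40 to 0.66). It was 0.44 at 3 to 5 UMIs, 0.27 at 6 to 11 and -0.08 (-0.17 to 0.00) at 12 or more. *Bach2* was thus not resolved between the libraries in cells rich in *Malat1*. *Foxp1* was higher with IL-2/21-trikine in all 4 groups, from 0.65 at 3 to 5 UMIs to 0.33 (0.23 to 0.43) at 12 or more. *Satb1* ranged from 0.25 to 0.04 and *Foxo1* from 0.24 to -0.12. For sIL-2 against sIL-2 + IL-21, *Bach2* was higher in each group, from 0.59 to 0.26, and *Satb1* was between 0.18 and -0.11.

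The level of long genes as a group also differed between libraries. Counts include intronic reads, and *Bach2* and *Foxp1* lie in the top decile of length among the genes tested while *Foxo1* and *Satb1* lie in the decile below. In the top decile, the median over 734 genes was log2 0.32 for sIL-2 against sIL-2 + IL-21, and 24.9% of them were higher by at least 0.5. For IL-2/21-trikine over sIL-2 + IL-21 the median was 0.14 with 6.95% higher, and for IL-2/21-trikine over sIL-2 it was -0.19. The lowest decile had -0.13, -0.06 and 0.07. The values of *Bach2* (0.99, 0.73 and -0.26) and *Foxp1* (0.72, 0.74 and 0.02) stand beside these. The decile of *Satb1* and *Foxo1* had medians of 0.26, 0.10 and -0.16, beside 0.46, 0.54 and 0.09 for *Satb1* and 0.55, 0.36 and -0.20 for *Foxo1*. *Satb1* was thus above 0 for IL-2/21-trikine over sIL-2 while its decile was below, and the part of gene length or nuclear RNA in these values was not tested.

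Levels also differed between cells in different states. Granzymes C to G are effector proteases that activated cytotoxic T cells produce, and cells were grouped by how many of the 5 genes had a UMI at 2000 UMIs per cell. In sIL-2 cells, *Bach2* was at 716 CPM with 0 of these genes, 547 CPM with 1, 419 CPM with 2 and 321 CPM with 3 or more. In IL-2/21-trikine cells it was at 548, 419, 307 and 254 CPM, and in sIL-2 + IL-21 cells at 541, 358, 237 and 184 CPM. Each step to more granzyme genes had less *Bach2*, in each library. *Satb1* had the same order, from 645 to 310.1 CPM with sIL-2, from 649.5 to 305 CPM with IL-2/21-trikine and from 636 to 282 CPM with sIL-2 + IL-21. *Foxp1* went from 506 to 222 CPM with sIL-2, and *Foxo1* from 128 to 103 CPM, the narrowest range of the 4. Cells with more granzyme genes were deeper, with a median of 10893.5 UMIs at 0 genes and 24612 at 3 or more with sIL-2. With levels from all UMIs of cells of 5000 to 10000 UMIs, *Bach2* with 0 genes and with 2 or more was 673 and 719 CPM with sIL-2 (1743 and 32 cells). It was 552 and 390 CPM with IL-2/21-trikine, and 577 and 384 CPM with sIL-2 + IL-21. At 10000 to 20000 UMIs in sIL-2 cells *Bach2* was 738 and 446 CPM, and *Foxo1* 116.9 and 117.4 CPM. The part of depth in the steps was not tested.

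Cells with none of these granzyme genes were 59.1% of sIL-2 cells, 58.6% of IL-2/21-trikine and 27.5% of sIL-2 + IL-21. Among the barcodes with myeloid markers, 0 of 9 with sIL-2 had a UMI of these granzymes, 3 of 19 with IL-2/21-trikine and 8 of 10 (80.0%, 44.4 to 97.5) with sIL-2 + IL-21, where *Gzmc* was at 4674 CPM against 1783 and 2386 CPM in the other libraries. These barcodes cannot tell background RNA from doublets. The share of cells with these granzymes in the sIL-2 + IL-21 library is not separated from background. A cell with 0 UMIs may still hold the RNA, and no difference between libraries is read from these shares. Within the cells without such a UMI the *Bach2* log2 ratio of IL-2/21-trikine over sIL-2 + IL-21 was 0.02, with an interval that held 0 (-0.05 to 0.08). *Satb1* (0.03, -0.03 to 0.09) and *Foxo1* (-0.03, -0.17 to 0.11) also had intervals that held 0, while *Foxp1* was still higher, by 0.46 (0.39 to 0.54). With sIL-2 against sIL-2 + IL-21, the same cells had *Bach2* higher by 0.40 (0.34 to 0.47), *Foxp1* by 0.57 (0.49 to 0.65) and *Satb1* at 0.02 (-0.04 to 0.08). Cells with 2 or more granzyme genes had *Bach2* higher by 0.44 (0.28 to 0.60) in IL-2/21-trikine cells than in sIL-2 + IL-21 cells. The groups without a granzyme UMI were unlike shares of these libraries, 58.6% and 27.5%, and rest on a status not separated from background. The ratios within them thus cannot show that a difference is absent.

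Depth and granzymes were then combined. Granzyme status was set after thinning to 2000 UMIs, while depth and levels were taken from all UMIs of a cell. A cell without a granzyme UMI in the thinned counts may thus hold some in its full counts, most of all a large cell. In cells without a UMI of these granzymes, the *Bach2* ratio of IL-2/21-trikine over sIL-2 + IL-21 was -0.19 (-0.32 to -0.06) at 2000 to 5000 UMIs, -0.06 at 5000 to 10000, 0.15 at 10000 to 20000 and 0.79 (0.72 to 0.85) above 20000. In cells with 2 or more granzyme genes it was -0.56 (-1.33 to 0.13), 0.02, 0.38 and 0.82 (0.75 to 0.88). A *Bach2* difference in cells above 20000 UMIs was therefore present in both groups. Such large cells without a granzyme UMI after thinning numbered 826 in the IL-2/21-trikine library and 297 for sIL-2 + IL-21. In them the other factors were higher with IL-2/21-trikine too, *Foxp1* by 0.78, *Satb1* by 0.37 and *Foxo1* by 0.35. At 10000 to 20000 UMIs *Satb1* was at 0.33 (0.28 to 0.37) and *Foxp1* at 0.53 (0.47 to 0.58) in cells without a granzyme UMI, while the interval of *Foxo1* held 0.

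**Figure D3:**
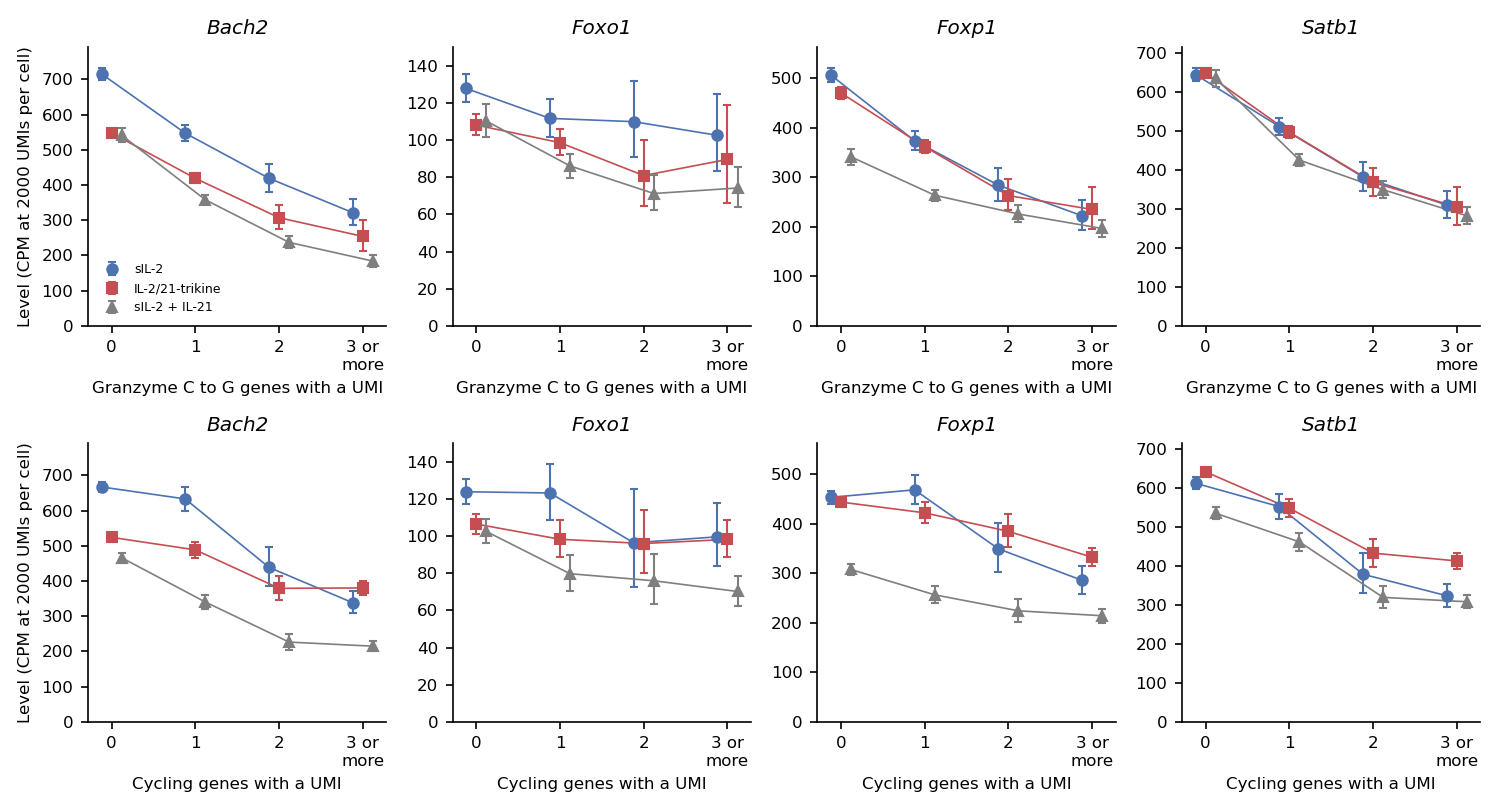
Level of each gene (CPM at 2000 UMIs per cell) against the number of granzyme C to G genes (top) or of 10 cycling genes (bottom) with a UMI in the cell, by library. Bars are exact 95% intervals for counting error. *Bach2* is lower at each granzyme step in every library, and the squares and triangles of *Bach2* and *Satb1* overlap at 0 granzyme genes while those of *Foxp1* do not.

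**Figure D4:**
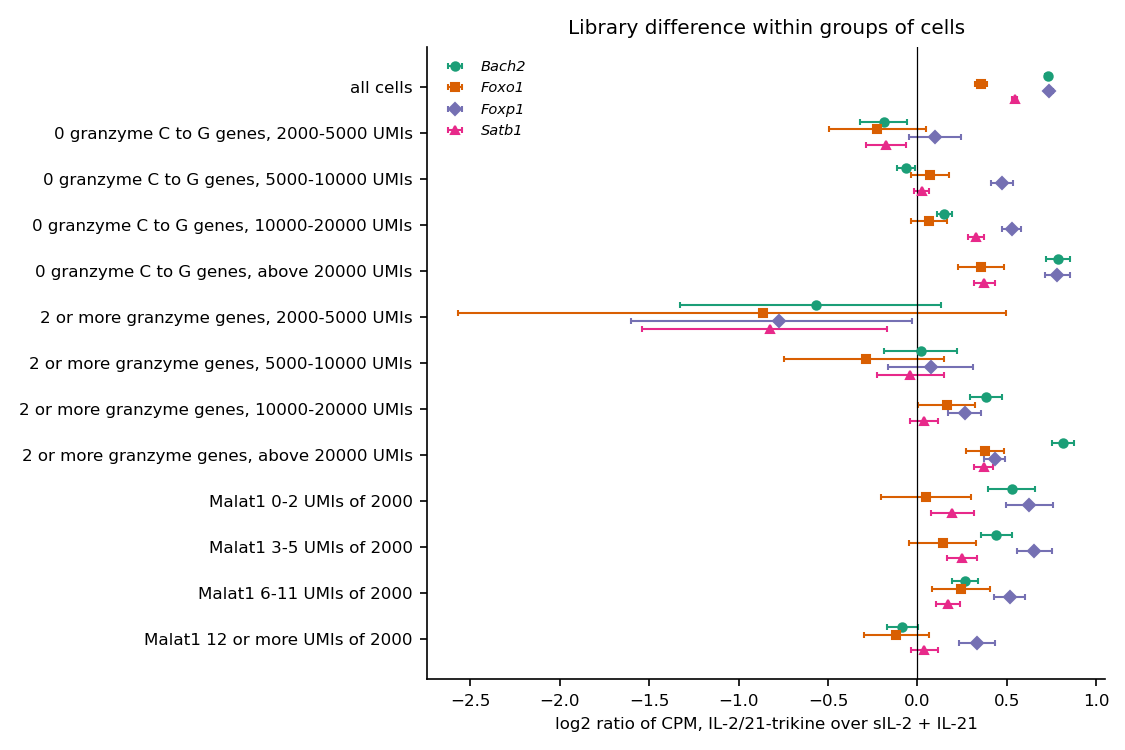
Log2 ratio of IL-2/21-trikine over sIL-2 + IL-21 (horizontal axis) for each gene in all cells and within groups of cells set by granzyme C to G genes and depth, or by *Malat1* UMIs at 2000 UMIs per cell. Granzyme genes were counted after thinning to 2000 UMIs, while depth and levels in those groups come from all UMIs. Bars are exact 95% intervals for counting error. *Bach2* spans -0.56 to 0.82 across the groups, and *Foxp1* is above 0 with its interval except at 2000 to 5000 UMIs (0.10, -0.05 to 0.24 with 0 granzyme genes and -0.77, -1.60 to -0.03 with 2 or more, from 21 and 63 cells) and at 5000 to 10000 UMIs with 2 or more granzyme genes (0.08, -0.16 to 0.31).

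Cycling cells had less *Bach2*, *Foxp1* and *Satb1* in each library. Cells with UMIs of at least 2 of 10 cycling genes, among them *Mki67*, *Top2a* and *Cdk1*, were 13.0% of sIL-2, 22.7% of IL-2/21-trikine and 31.6% of sIL-2 + IL-21 cells. *Bach2* in them, over cells with 0 of the genes, was at log2 -0.86 with sIL-2, -0.46 in IL-2/21-trikine cells and -1.10 in cells of sIL-2 + IL-21. *Satb1* was at -0.85, -0.62 and -0.78, and *Foxp1* at -0.58, -0.36 and -0.50. *Foxo1* was at -0.33, -0.13 (-0.27 to 0.02) and -0.51, so its difference was not resolved with IL-2/21-trikine. Cycling cells were deeper, with a median of 28692 UMIs against 11956 with sIL-2. Within cycling cells, *Bach2* with IL-2/21-trikine was at log2 0.80 over sIL-2 + IL-21 (0.70 to 0.90) and at 0.05 over sIL-2 (-0.08 to 0.17), so IL-2/21-trikine and sIL-2 were not resolved there. In cells with 0 cycling genes these values were 0.17 (0.12 to 0.22) and -0.35 (-0.40 to -0.30).

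Cells called stem-like here, which carried UMIs of at least 2 of *Tcf7*, *Il7r*, *Ccr7* and *Bcl2*, had more of each factor in each library. *Satb1* was higher than in cells with none of these genes by log2 0.68 with sIL-2, 0.62 in IL-2/21-trikine cells and 0.89 in cells of sIL-2 + IL-21. *Bach2* was higher by 0.48, 0.34 and 0.86, *Foxp1* by 0.27, 0.32 and 0.58, and *Foxo1* by 0.32, 0.33 and 0.65. Cells with UMIs of at least 2 of the terminal genes *Pdcd1*, *Havcr2* and *Entpd1* had *Bach2* at -0.70, -0.70 and -1.27 against cells with none. *Foxo1* was at -0.19, -0.22 and 0.05 in that contrast, with intervals that held 0 in all 3 libraries. Stem-like and terminal cells thus lay on opposite sides for *Bach2*, *Foxp1* and *Satb1*. Depth differed as well. Stem-like cells had a median of 11727 UMIs against 17591 in cells with none with sIL-2 + IL-21. Terminal cells had 18763 UMIs against 12013.5 with sIL-2, and the part of depth in these contrasts was not tested.

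*Tcf7*, which encodes the transcription factor TCF1 of stem-like T cells, was looked at by itself. In cells with a *Tcf7* UMI, *Satb1* was at 790.1 CPM with sIL-2, 741 CPM with IL-2/21-trikine and 866 CPM with sIL-2 + IL-21. Cells without *Tcf7* had 537, 553 and 426 CPM. *Bach2* was at 724, 581 and 631 CPM with *Tcf7* and at 609, 472 and 348 CPM without. The sIL-2 + IL-21 library had the widest gap for both genes, log2 1.03 for *Satb1* and 0.86 for *Bach2*, in 557 cells with *Tcf7*.

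Cytokine RNA divided the factors. Cells with UMIs of at least 2 of *Il2*, *Il3*, *Ifng*, *Csf2*, *Ccl3*, *Ccl4*, *Xcl1* and *Tnf* had *Satb1* lower than cells with none, at log2 -0.42 with sIL-2, -0.46 in IL-2/21-trikine cells and -0.47 in cells of sIL-2 + IL-21. *Foxo1* was lower too, at -0.32, -0.50 and -0.32. *Bach2* was at 0.09, 0.06 and -0.09 and *Foxp1* at 0.02, 0.00 and 0.06. *Foxo1* and *Satb1* were thus lower in cytokine-bearing cells of each library, and *Bach2* and *Foxp1* were not. Cytokine-bearing cells were deeper, with a median of 14885 UMIs against 11352 with sIL-2, and the part of depth was not tested.

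Other genes were also read by the status of each factor. Those at 10 CPM or more were compared between thinned cells with and without a UMI of each factor, and counted where the log2 ratio was at least 0.25 in size with 1 direction in all 3 libraries. With *Bach2*, 5.03% of 7369 genes were higher and 2.86% lower. With *Foxo1* the values were 1.89% and 0.516%, with *Foxp1* 2.02% and 1.21%, and with *Satb1* 5.78% and 3.23%. *Foxo1* was the factor detected in the fewest cells. These contrasts use the same thinned counts as the cell groups above and are not independent of them. Thinned counts of each factor were lower in deeper cells, and the part of depth was not tested. All 5 of the granzymes C to G were lower by this rule in cells with *Bach2*, *Foxp1* or *Satb1*, and 0 of 5 in cells with *Foxo1*. A count of 0 means that no gene met the limit in all 3 libraries. The median of the 5 granzymes with *Foxo1* was -0.27. In cells with 2 or more of these granzymes, *Foxo1* was lower than in cells with 0 in each library (-0.26, -0.37 and -0.60). *Gzmc* was at log2 -1.03, -0.89 and -0.66 with *Satb1* in sIL-2 cells, IL-2/21-trikine cells and sIL-2 + IL-21 cells.

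Of the 10 cycling genes, 9 were lower with *Bach2*, 7 with *Satb1*, 6 with *Foxp1* and 0 with *Foxo1*. Of the 3 terminal genes, all 3 were lower with *Bach2*, 2 with *Satb1*, and 0 with *Foxp1* or *Foxo1*. The median of the terminal genes was -0.23 with *Foxp1* and -0.05 with *Foxo1*, and that of the cycling genes with *Foxo1* was -0.22. Of the 8 cytokine and chemokine genes, 7 were lower with *Satb1* and 5 with *Foxo1*, while 0 were lower with *Bach2* or *Foxp1*. *Xcl1*, a chemokine that attracts dendritic cells, was higher with *Foxp1* (0.42, 0.28 and 0.42) and lower with *Satb1* (-0.91, -0.85 and -0.91). *Il2*, the gene of the T cell growth factor, was lower with *Foxo1* (-1.29, -1.93 and -1.43) and not called with *Bach2* (-0.29, -0.25 and -0.05). The interferon-stimulated genes were counted as higher in 4 of 9 cases with *Satb1*, in 1 with *Foxp1* (*Ifit1*) and in 0 with *Bach2* or *Foxo1*.

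**Figure D5:**
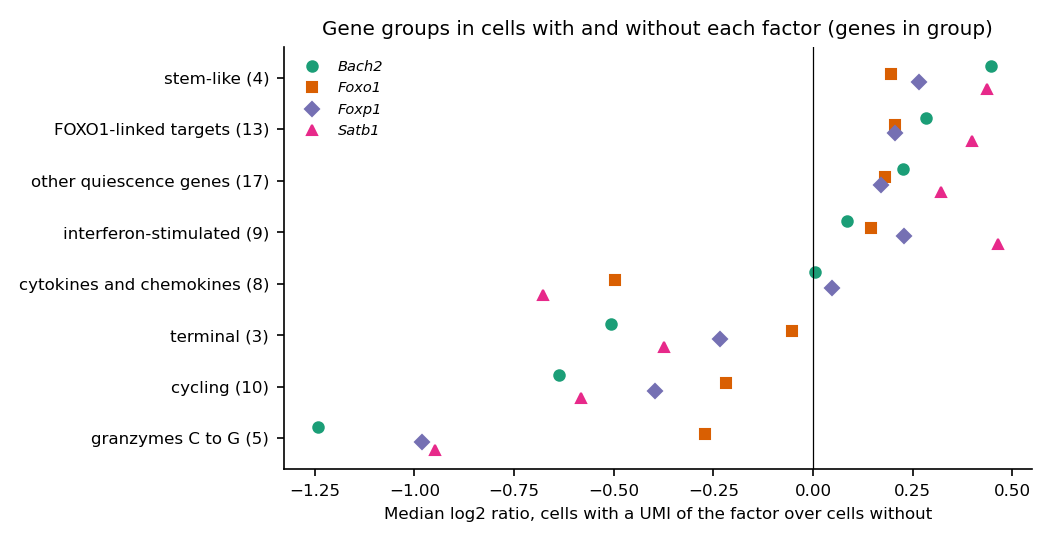
Median over each gene group (vertical axis, number of genes at 10 CPM or more in parentheses) of the log2 ratio between cells with and without a UMI of each factor, averaged over the 3 libraries (horizontal axis). Granzymes C to G are at -1.24 with *Bach2*, and the cytokine and chemokine group is at -0.68 with *Satb1* and -0.50 with *Foxo1* but at 0.01 with *Bach2* and 0.05 with *Foxp1*.

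The genes most like each factor across cells were ranked by their lowest Pearson correlation over the 3 libraries, among 8366 genes and on log-transformed thinned counts. For *Bach2* they were *Arap2* (0.21, 0.16 and 0.23 with sIL-2, IL-2/21-trikine and finally sIL-2 + IL-21), *Rel*, *Malat1*, *Ptprc*, *Foxp1*, *Satb1*, *Nfkb1*, *Adamts6*, *Ankrd44* and *Ccr7*. *Rel* and *Nfkb1* encode subunits of NF-κB, and *Ccr7* a receptor for homing to lymph nodes. The least like were *Tmsb4x*, *Tmsb10*, *Gzmc*, *Lgals1* and *Vim*, with *Gzmc* at -0.20, -0.17 and -0.28. The correlations were weak in sparse counts and are given as a description of cells that share a library.

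For *Satb1* the most like genes were *Gramd3* (0.21, 0.21 and 0.24), *Malat1*, *Arhgap15*, *Vps37b*, *Dennd4a*, *Btg1*, *Emb*, *Gm26740*, *Akap13* and *Gm2682*. The least like were *Gzmc*, *Lgals1*, *Ppia*, *Gzmb* and *Actb*. For *Foxp1* the most like were *Bach2* (0.16, 0.14 and 0.14), *Satb1*, *Malat1*, *Ptprc*, *Arhgap15*, *Rapgef6*, *Arap2*, *Man1a*, *Utrn* and *Aff3*. The least like were *Tmsb4x*, *Lgals1*, *Actg1*, *Ifitm1* and *Gzmc*. For *Foxo1* no correlation passed 0.11. Its leading genes were *Dennd4a*, *Gramd3*, *Emb*, *Akap13*, *Malat1*, *Vps37b*, *Satb1*, *Camk4*, *Arhgap15* and *Il12rb2*, and the least like included *Rps26*, *Ppia*, *Rps2* and *Rpl14*. *Foxo1* and *Satb1* had 7 of 10 leading genes in common, and *Bach2* and *Foxp1* had 4 of 10. Leading genes were long, with a median length above 89.5% of the genes tested for *Bach2* and 95.3% for *Foxp1*, and *Malat1* was among the 10 for each factor.

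Of 7 relatives of the factors, *Bach1* (16.1, 12.1 and 10.2 CPM with sIL-2, IL-2/21-trikine and finally sIL-2 + IL-21), *Foxo3* (30.2, 25.0 and 18.5 CPM) and *Foxp4* (20.6, 15.4 and 12.8 CPM) had a mean of 10 CPM or more. All 3 were higher with sIL-2 than with sIL-2 + IL-21, by log2 0.66 to 0.71, and none passed 0.5 in the other comparisons. *Foxp3*, the factor of regulatory T cells, was at 1.12 CPM or less in each library. These levels are relative to all UMIs and not to length, so genes are not ranked against each other by them.

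Of 16 genes linked to FOXO1, 13 reached 10 CPM. With IL-2/21-trikine over sIL-2 + IL-21, 5 of 13 were higher (*Klf2*, *Ccr7*, *Tcf7*, *Bcl6* and *Sesn3*) and 0 lower, against 3.18% of all genes higher. With sIL-2 over sIL-2 + IL-21, 6 of 13 were higher (*S1pr1*, *Tcf7*, *Bcl6*, *Cdkn1b*, *Sesn3* and *Bcl2l11*), against 9.89% of all genes. *Tcf7* was at 60.3, 59.9 and 21.7 CPM with sIL-2, IL-2/21-trikine and finally sIL-2 + IL-21, a log2 ratio of 1.47 for both sIL-2 and IL-2/21-trikine over sIL-2 + IL-21. *Ccr7* was at 294, 462 and 242 CPM and was the gene counted as higher with IL-2/21-trikine over sIL-2 (0.66). *S1pr1*, a receptor for exit from tissue, was lower in that comparison (-0.79). *Il7r*, the IL-7 receptor, was at 223, 269 and 267 CPM and passed in no comparison. The median of the 13 genes was 0.34 for IL-2/21-trikine over sIL-2 + IL-21, 0.45 for sIL-2 against sIL-2 + IL-21 and -0.26 for IL-2/21-trikine over sIL-2, beside 0.00, 0.07 and -0.08 for all genes. In cells with a *Foxo1* UMI, 2 of the 13 were higher (*Sesn3* and *Irs2*), against 1.89% of all genes, and in cells with *Satb1* 9 of 13 were, against 5.78%.

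The genes that act on FOXO1 through PI3K and AKT were counted in the same way. Of 14 listed, 13 reached 10 CPM. With IL-2/21-trikine over sIL-2 + IL-21, 0 were higher and 1 was lower (*Akt1*, -0.52), against 3.18% and 2.86% of all genes. With sIL-2 over sIL-2 + IL-21, 3 were higher, among them *Pik3r1* (0.63) and *Inpp5d* (0.59), against 9.89% of all genes. With IL-2/21-trikine over sIL-2, *Pik3r1* (-0.64) and *Inpp5d* (-0.57) were lower, against 5.41% of all genes. Among partners and opponents of BACH2, *Prdm1*, which encodes the effector repressor BLIMP1, was at 18.2 CPM with sIL-2, 7.95 CPM with IL-2/21-trikine and 16.8 CPM with sIL-2 + IL-21. *Prdm1* was thus lowest where *Bach2* was intermediate. *Batf3*, an AP-1 factor whose mean was below 10 CPM, was at 20.6 CPM with sIL-2 + IL-21 and at 2.48 and 2.28 CPM in the other libraries. *Irf4* was at 97.7, 81.1 and 61.4 CPM, and *Bcl6* at 37.8, 29.5 and 13.8 CPM, both in the order of *Bach2*. Of 10 partners and opponents at 10 CPM or more, 3 were lower for IL-2/21-trikine over sIL-2 (*Maff*, *Junb* and *Prdm1*). For IL-2/21-trikine over sIL-2 + IL-21, 1 was higher (*Bcl6*) and 1 lower (*Prdm1*), and 3 were higher with sIL-2 than with sIL-2 + IL-21 (*Mafk*, *Irf4* and *Bcl6*). Over all genes, 5.41% were lower in the first of these comparisons, 3.18% higher and 2.86% lower in the next, and 9.89% higher in the last.

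Other genes of T cell quiescence were higher with sIL-2 than with sIL-2 + IL-21 in 10 of 17 cases and lower in 0, with a median of 0.53, against 9.89% and 5.2% of all genes with a median of 0.07. *Vsir*, which encodes the checkpoint receptor VISTA, was at 86.6, 53.8 and 42.8 CPM with sIL-2, IL-2/21-trikine and finally sIL-2 + IL-21. *Btg1*, an antiproliferative gene, was at 777, 743 and 474 CPM. With IL-2/21-trikine over sIL-2 + IL-21, *Klf2*, *Btg1* and *Slfn2* were higher, 3 of 17 against 3.18% of all genes, with a median of 0.31 against 0.00. With IL-2/21-trikine over sIL-2, 0 were higher and *Btg2*, *Vsir* and *Runx1* were lower, against 2.56% and 5.41% of all genes. The lists overlap, so their counts are not independent. *Klf2* and *Cdkn1b* were also counted among the genes linked to FOXO1, and *Bcl6* both there and among the partners and opponents of BACH2.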

How the data were processed

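UMI counts for each gene in each cell, deposited as Cell Ranger gave them, include intronic reads and had no normalization by the authors. The methods name a GRCm39 reference and the submitters' processing notes name mm10, so no coordinates were taken from the counts. Cells with 500 to 120000 UMIs and at most 20% of UMIs from 13 mitochondrial genes were kept, 30857 of 31026. UMIs summed per library were scaled to CPM, and a difference between libraries means a log2 ratio of at least 0.5 among genes with a mean of 10 CPM. Thinning to 2000 UMIs was without replacement. No doublet caller was run. Gene lengths and start sites came from GRCm38 annotation (99.6% of tested genes matched).

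The factors and all gene lists were chosen with earlier results of these data known. Named genes were the 4 factors, genes of the lists, and for each factor the 10 most and 5 least like genes among those detected in at least 1% of cells. Alternatives covered scaling, weight of cells, limits on cells, depth after thinning, gene filters and group limits. On simulated counts for 7370 genes, 100% of 200 changed genes were recovered in each comparison, and 95.1% to 95.5% of intervals held the true ratio. These counts were drawn from the Poisson model that the intervals assume, with every planted change larger than the limit. They therefore check the code only, and say nothing of spread between cells, mice or libraries. Python 3.11.15, numpy 2.4.6, scipy 1.17.1 and pandas 2.3.3 were used. Some members of the gene lists were counted but are not reported here by name.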

Additional observations from a re-analysis of the deposited data

How the results depend on the processing

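With 1 library per treatment, no library could be left out. No paired analysis was possible because the treatments share fewer than 2 replicate numbers. Keeping all deposited cells, or a minimum of 1000 UMIs with a mitochondrial share up to 10%, left all 12 ratios of the factors within their intervals. With median-of-ratios scaling, IL-2/21-trikine over sIL-2 was at log2 -0.20 for *Bach2*, -0.13 for *Foxo1*, 0.081 for *Foxp1* and 0.15 for *Satb1*, and sIL-2 over sIL-2 + IL-21 at 0.92, 0.48, 0.65 and 0.38 for the genes in this order. With each cell weighted equally, the values in the same order of genes were -0.22, -0.12, 0.090 and 0.15 for IL-2/21-trikine to sIL-2, 0.54, 0.32, 0.70 and 0.48 for IL-2/21-trikine over sIL-2 + IL-21, and 0.76, 0.44, 0.61 and 0.33 for sIL-2 against sIL-2 + IL-21. After thinning to 2000 UMIs, IL-2/21-trikine over sIL-2 was at -0.36 for *Bach2*, -0.061 for *Foxp1* and 0.019 for *Satb1*, IL-2/21-trikine over sIL-2 + IL-21 at 0.41, 0.22, 0.63 and 0.35 for *Bach2*, *Foxo1*, *Foxp1* and *Satb1*, and sIL-2 over sIL-2 + IL-21 at 0.77, 0.44, 0.69 and 0.33. *Bach2* and *Satb1* were then below 0.5 for IL-2/21-trikine over sIL-2 + IL-21, as *Foxo1* was for sIL-2 to sIL-2 + IL-21 under this, equal weights and median-of-ratios scaling, and the cause was not tested. Without the 5% of cells with the most UMIs, *Bach2* was at -0.29 and *Foxp1* at -0.016 and *Satb1* at 0.067 for IL-2/21-trikine over sIL-2, *Bach2* at 0.69 over sIL-2 + IL-21, and *Satb1* at 0.47 for sIL-2 against sIL-2 + IL-21. With a minimum of 5000 UMIs and a mitochondrial share up to 5%, a limit chosen after seeing the data like the bins of *Malat1*, granzymes and cycling, IL-2/21-trikine over sIL-2 was at -0.28 for *Bach2*, -0.0031 for *Foxp1* and 0.065 for *Satb1*, and sIL-2 over sIL-2 + IL-21 at 1.01, 0.74 and 0.48.

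The log2 ratio of shares of positive cells depended on the depth of thinning. At 1000 UMIs it was -0.19 for *Bach2* and 0.023 for *Foxp1* (the other direction than at 2000 UMIs, -0.05) for IL-2/21-trikine to sIL-2, 0.46, 0.51 and 0.26 for *Bach2*, *Foxp1* and *Satb1* for IL-2/21-trikine over sIL-2 + IL-21, and 0.65 and 0.54 for *Bach2* and *Foxo1* for sIL-2 against sIL-2 + IL-21. At 5000 UMIs it was -0.044 for *Bach2* and -0.0048 for *Foxp1*, then 0.32 and 0.15 for *Foxp1* and *Satb1*, and 0.36, 0.32 and 0.11 for *Bach2*, *Foxp1* and *Satb1*, in the same order of comparisons. The number of all genes past 0.5 in the comparisons IL-2/21-trikine over sIL-2, IL-2/21-trikine over sIL-2 + IL-21, and sIL-2 to sIL-2 + IL-21 was 588, 445 and 1112 as reported, 1226, 1162 and 2096 at 1 CPM, 200, 162 and 461 at 50 CPM, and 5740, 6144 and 6892 with no filter. Thinning to 5000 UMIs moved the genes called by *Bach2* from 582 to 885 and by *Foxo1* from 177 to 93. Cell groups were also set by at least 3 genes of a list in place of 2. Of the single ratios of a factor in a cell group, 35 then moved and 37 stayed the same. The sizes of the contrasts between cell groups thus depended on this limit. Terminal cells then numbered only 42 in the sIL-2 library, 14 in the IL-2/21-trikine library and 54 in the sIL-2 + IL-21 library. With at least 3 interferon-stimulated genes, 2 of 12 ratios were below 0 in place of 1.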

Other observations

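*Eomes*, a T-box factor of memory cells, was at 11.8 CPM with sIL-2, 4.95 CPM with IL-2/21-trikine and 2.64 CPM with sIL-2 + IL-21. *Klf3*, a member of the quiescence list, was at 10.8, 8.20 and 3.52 CPM in the same order. Neither gene reached the mean of 10 CPM needed for the counts above, and they were chosen after their values were seen.

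Cells with UMIs of at least 2 interferon-stimulated genes were 19.8% of the sIL-2 library, 14.7% of IL-2/21-trikine and 6.12% of sIL-2 + IL-21. In them *Satb1* was higher than in cells with none, by log2 0.28 (0.20 to 0.36), 0.47 (0.40 to 0.54) and 0.62 (0.51 to 0.73). *Bach2* was at -0.18 (-0.26 to -0.10) with sIL-2, 0.01 (-0.07 to 0.09) with IL-2/21-trikine and 0.21 (0.08 to 0.35) with sIL-2 + IL-21, so its direction was not the same in the libraries. The median depth of these cells was 9871 UMIs with sIL-2, against 14894 in cells with none.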
